A study of Oryza sativa with 6 samples.

Results

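NAC proteins form one of the large families of plant transcription factors. The set described here holds the 87 rice genes, of 34896 genes on the array, whose product description in the deposited annotation named a NAC domain, a NAC transcription factor or a no apical meristem (NAM) protein. They were covered by 108 of the 57258 probe sets. Only probe sets assigned to 1 locus were used, and the probe set with the highest mean signal stood for its gene. A further 4 probe sets with the same wording were assigned to several loci and were left out. The wording decides membership, so the set is not the whole family. Of 33 NAC genes known by name from earlier rice work, 11 fell outside it, and 8 of those were on the array under other wording, such as SNAC3, OsNTL3 and ONAC054.

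The study measured RNA from root tips of a Japonica rice on Affymetrix arrays. The treated group was 3 arrays from 5-d-old seedlings held for 6 h in 0.5 mM CaCl2 with 50 µM aluminium (Al) at pH 4.5, called after Al here. Its reference was 3 arrays from root tips taken before Al, from seedlings floated on 0.5 mM CaCl2 without Al, called before Al here. The tips were the first cm of the root (0-1 cm). No array came from seedlings kept for the same 6 h without Al, and for the CaCl2 solution without Al the labels state no pH. Al, acidity and elapsed time cannot be told apart. The labels call the arrays biological repeats without saying whether each was a separate culture. The p-values are thus based on the spread among these 6 samples, part of which may be technical.

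A NAC protein carries a conserved DNA-binding NAC domain at its amino end and a variable region, often an activator, at its carboxyl end. Members of the family switch on stress responses to drought, salt and abscisic acid (ABA), control leaf senescence, set organ boundaries, and start secondary wall formation in vascular cells. Some are tethered to membranes by a carboxyl-terminal helix and are cut free under stress, and the messages of some others are cleaved under the guidance of the microRNA miR164.

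Signals are given as log2 units, and a difference of 1 unit is a 2-fold change. A change is the mean of the 3 arrays after Al minus the mean of the 3 arrays before Al, with the standard error (SE) of the limma fit. A gene passed the test at an adjusted p under 0.05 after Benjamini-Hochberg adjustment across the 25283 tested probe sets. To be tested, a probe set needed a present call in the deposited table on 3 or more of the 6 arrays. Levels of single genes are not compared between probe sets, because each probe set binds with its own strength. Probe sets are marked as shared here where their names end in _s_at, _x_at or _a_at. The _a_at ending stands for alternative transcripts of the same gene.

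About as many of these NAC genes were detected in root tips after Al as before it. The numbers of members called present were 42, 42 and 45 on the arrays after Al, against 40, 42 and 42 on the arrays before Al. Of the 87 members, 34 were called present on all 6 arrays, 9 on 3 to 5, 8 on 1 or 2, and 36 on none. The test therefore covered 43 members, and the other 44 are described by their values near the end.

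After Al, 20 of the 43 tested NAC genes were higher and 6 were lower, and 17 did not pass. Of all probe sets tested, 14.3% were higher and 15.9% were lower. With 1 probe set per gene, as for the NAC genes, 16.2% of all tested genes were higher and 17.8% were lower. The NAC share of rises was thus above the background (46.5%) and the NAC share of falls was not (14.0%). At 2-fold or more, 9 NAC genes were higher and 2 were lower, against 4.55% and 2.52% of all probe sets. Of all tested genes, the shares at 2-fold were 5.13% and 2.68%. A gene detected only in the group where it is high passes the detection filter because of its change. Among the 34 members present on all 6 arrays, where this cannot occur, 15 were higher and 4 were lower, and the matching shares of all such probe sets were 14.5% and 17.4%. At 2-fold or more, 5 of these 34 were higher and 0 were lower in the limma fit, against 3.45% and 2.14% of such probe sets, and the count lower was 0 also at an unadjusted p under 0.05. The median change of the tested members was 0.35, against -0.04 for all tested probe sets, and 27 of the 43 changes were above 0. With no filter the median of all 87 members was 0.103.

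The values of the 2 groups did not overlap for any of the 26 NAC genes that passed. Among all tested members, every array after Al lay above every array before Al for 23 genes (19.6% of all probe sets), and below it for 9 genes (24.1% of all probe sets). With 1 probe set per gene, the shares of all tested genes were 21.6% and 25.9%. The members varied more between arrays of a group than the average probe set did. Their median SD was 0.214 after Al and 0.224 before Al, against 0.133 and 0.117 for all tested probe sets. The median signal of the tested members was also lower, at 7.92 against 9.02. The spreads were not compared at like signal. The 1 array that stood lowest most often was before Al repeat 2, which held the lowest value of its group for 20 of the 43 tested members, against 32.7% of all tested probe sets. After Al repeat 1 did so for 19, against 34.1%.

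**Figure D1:**
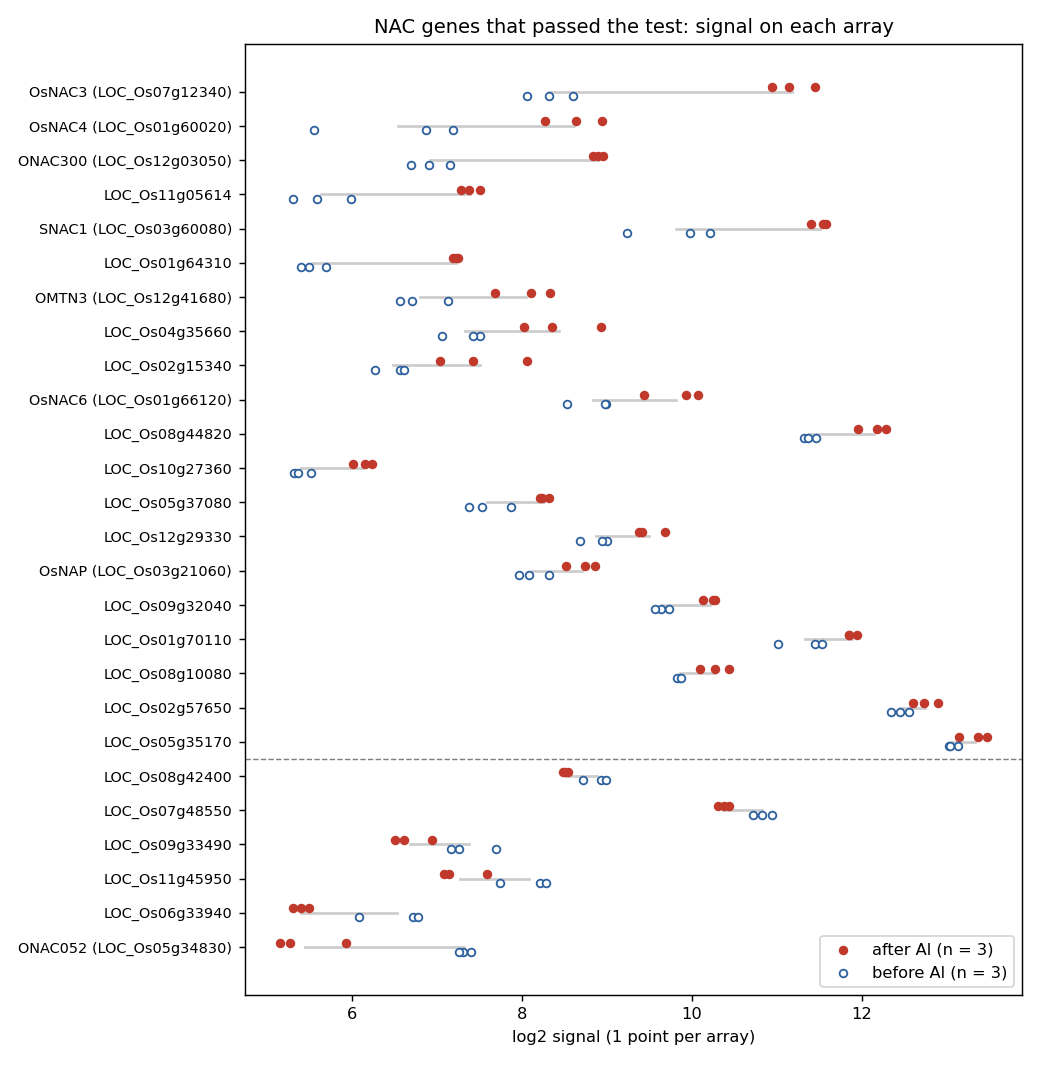
Log2 signal (horizontal axis) of the 26 NAC genes that passed the test, with 1 filled point for each array after Al (n = 3) and 1 open point for each array before Al (n = 3), and a grey line joining the group means. The 20 genes above the dashed line were higher after Al and the 6 below it were lower, and in each gene the filled and open points do not overlap.

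The NAC genes known from stress responses held both the largest rise and the largest fall among the tested members. Of the 9 tested members of this group, 5 were higher after Al and 1 was lower. Of all 43 tested NAC genes, 46.5% were higher and 14.0% were lower, and of all tested probe sets 14.3% and 15.9%. The same shares stand beside the counts of the smaller groups of NAC genes below. The lower gene, ONAC052, met the detection filter only through the arrays before Al. The group was written from prior knowledge of rice genes, and its counts are a description.

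OsNAC3 (LOC_Os07g12340), an ABA- and salt-responsive factor, changed more than any other tested NAC gene. Its signals were 10.95, 11.15 and 11.45 after Al, against 8.31, 8.06 and 8.60 before Al. The lowest array after Al was thus more than 2 units above the highest before Al. The means were 11.18 ± 0.26 and 8.32 ± 0.27 (SD, n = 3 each), a change of 2.86 (SE 0.16, limma adjusted p = 1.06e-06), or 7.27-fold. Its probe set aligned to chr7:6966307-6967558 on the plus strand in the deposited annotation. That annotation states no genome build and does not say which exons or untranslated regions the probes meet.

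SNAC1 (LOC_Os03g60080), which activates drought and salt responses and stomatal closure and carries the same product wording as OsNAC3 (NAC domain-containing protein 67), was also higher. Its signals were 11.58, 11.54 and 11.40 after Al, against 10.22, 9.24 and 9.97 before Al. The arrays after Al were close together, and before Al repeat 2 lay well under the other arrays before Al. The change was 1.70 (SE 0.20, limma adjusted p = 0.000167), and without that array it was 1.41. Its alignment was chr3:34105033-34106478 on the plus strand.

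OsNAC4 (LOC_Os01g60020), a positive regulator of hypersensitive cell death, was called present on all 3 arrays after Al and on 1 before Al. Signals were 8.94, 8.27 and 8.64 after Al, against 7.18, 5.56 and 6.87 before Al. The groups did not overlap, and before Al repeat 2 was again the lowest array. The change was 2.08 (SE 0.37, limma adjusted p = 0.00205), and 1.58 without that array. The probe set aligned to chr1:35019760-35021240 on the minus strand.

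ONAC300 (LOC_Os12g03050), a factor of vascular tissue that has been linked to cadmium tolerance, had very even signals after Al. They were 8.95, 8.90 and 8.83 after Al, against 7.16, 6.69 and 6.90 before Al. The means of 8.89 ± 0.06 and 6.92 ± 0.23 (SD, n = 3 each) gave a change of 1.98 (SE 0.14, limma adjusted p = 6.57e-06). Every array after Al was more than 1 unit above every array before Al. It aligned to chr12:1146147-1147454 on the plus strand.

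OsNAC6 (LOC_Os01g66120), a stress-induced activator that in rice roots is also tied to nicotianamine synthesis, rose just under 2-fold. Signals were 9.44, 9.94 and 10.08 after Al, against 8.99, 8.98 and 8.54 before Al. The change was 0.98 (SE 0.18, limma adjusted p = 0.00219). The closest arrays of the groups were after Al repeat 1 and before Al repeat 1.

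ONAC052 (LOC_Os05g34830), a factor linked to the ABA response, went the other way. No array after Al called it present, against all 3 before Al. Signals were 5.27, 5.92 and 5.15 after Al, against 7.30, 7.40 and 7.26 before Al, with no overlap. Since it was not detected after Al, the size rests on undetected signals and is an estimate, not a lower limit. It was 3.66-fold lower after Al (limma adjusted p = 0.000284). It shares the wording NAC domain-containing protein 48 with OsNAC6, so the pair with this wording moved in opposite directions. The alignment was chr5:20594823-20597005 on the plus strand.

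The other tested stress NAC genes did not pass. OsNAC5 (LOC_Os11g08210), a stress-induced activator linked to drought and salt tolerance, had signals of 9.32, 9.89 and 9.67 after Al, against 9.80, 9.92 and 10.00 before Al. The change of -0.28 (SE 0.13) had a limma adjusted p of 0.15, and the groups overlapped. Without after Al repeat 2 it was -0.41 at an adjusted p of 0.0409.

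OsNAC10 (LOC_Os11g03300, also named ONAC122), whose expression in roots raises drought tolerance, had 8.19, 8.31 and 8.02 after Al, against 9.10, 7.55 and 8.77 before Al. Before Al repeat 2 was below every array after Al, while the other arrays before Al were above every one. The change was -0.30 (SE 0.33, limma adjusted p = 0.539), and without before Al repeat 2 it was -0.76 at an adjusted p of 0.00558. The deposited notes name 5 of its probes as also matching its paralog ONAC131, so both genes can feed this signal. ONAC045 (LOC_Os11g03370), a drought- and salt-responsive factor, read 4.83, 4.77 and 5.46 after Al, against 4.86, 6.00 and 5.00 before Al, and its change of -0.26 (SE 0.39) did not pass (limma adjusted p = 0.666).

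**Figure D2:**
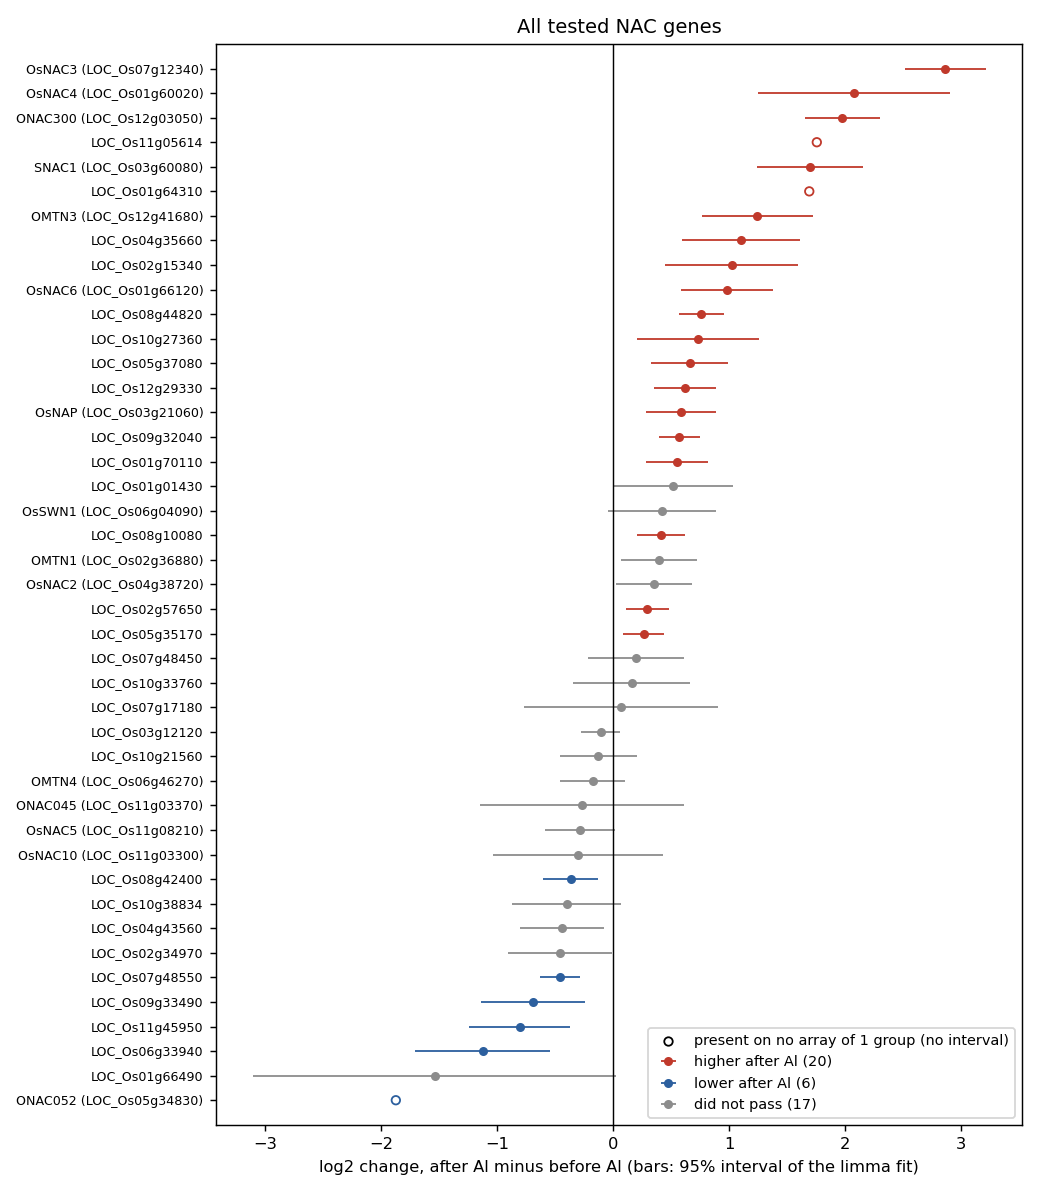
Log2 change after Al minus before Al for the 43 tested NAC genes, sorted by size, with the 95% interval of the limma fit as bars; 3 arrays per group. The 20 genes that were higher run up to 2.86 (OsNAC3), 6 were lower and 17 did not pass. Open points without bars are the 3 genes present on no array of 1 group, whose sizes rest on undetected signals in that group.

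NAC genes described as NAC domain-containing protein 90 were all tested, and all 4 passed. Of these, 3 were higher after Al and 1 was lower, but 2 of the 3 met the detection filter only through the arrays after Al. Of the 2 genes detected in both groups, 1 was higher and 1 was lower. LOC_Os11g05614 had signals of 7.50, 7.28 and 7.37 after Al, against 5.99, 5.59 and 5.30 before Al. It was called present on every array after Al and on none before Al. The rise was estimated at 3.38-fold (limma adjusted p = 0.000248), which rests on undetected signals before Al and is not a lower limit. LOC_Os01g64310 had the same pattern of calls, with 7.19, 7.23 and 7.24 after Al, against 5.49, 5.40 and 5.70 before Al. Its rise was estimated at 3.23-fold (limma adjusted p = 0.000124), with the same limit. With 64 added to each linear signal, the change of LOC_Os11g05614 was 1.02. That of LOC_Os01g64310 was then 0.95, under 2-fold. The probe sets used for these genes were thus called present only on the arrays after Al. A second probe set of LOC_Os11g05614, not marked as shared, was present on no array. Its means were 5.09 after Al and 4.30 before Al, a difference of 0.79.

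The other genes with this wording were present in both groups. LOC_Os05g37080 read 8.21, 8.24 and 8.32 after Al, against 7.38, 7.53 and 7.87 before Al, and was higher by 0.66 (SE 0.15, limma adjusted p = 0.00734). LOC_Os11g45950 read 7.09, 7.14 and 7.59 after Al, against 7.74, 8.21 and 8.28 before Al, a change of -0.81 (SE 0.19, limma adjusted p = 0.0109). The wording alone therefore did not set the direction. Roles of these 4 genes in rice are not stated here, since the files give only the product description.

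The 4 members listed as miR164 targets were all tested, and 1 passed. The list was written from prior knowledge and need not hold every miR164 target of rice. OMTN3 (LOC_Os12g41680) had signals of 7.69, 8.34 and 8.11 after Al, against 7.13, 6.56 and 6.71 before Al. Detection calls were present on 3 arrays after Al and on 2 before Al, and the groups stood apart. The change was 1.24 (SE 0.21, limma adjusted p = 0.00158). OMTN1 (LOC_Os02g36880) had 8.76, 8.74 and 9.26 after Al, against 8.57, 8.43 and 8.58 before Al. OsNAC2 (LOC_Os04g38720, also named OMTN2), linked to senescence, ABA and root growth, had 8.86, 8.54 and 8.45 after Al, against 8.32, 8.43 and 8.05 before Al.

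In both of these genes every array after Al lay above every array before Al, but the changes of 0.39 (SE 0.15) and 0.35 (SE 0.15) did not pass (limma adjusted p = 0.0708 and 0.104). Both were read by probe sets of the _a_at type, which is marked as shared here but stands for transcripts of the same gene. OMTN4 (LOC_Os06g46270) had 9.37, 9.89 and 9.80 after Al, against 9.91, 9.83 and 9.85 before Al, with overlap and a change of -0.18 (SE 0.13, limma adjusted p = 0.341).

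The wider group with the wording NAC domain-containing protein 21/22, to which OMTN3 and OMTN4 belong, was mixed. Of its 7 members, 6 were tested, 2 were higher and 1 was lower. LOC_Os08g10080 was higher by 0.41 (SE 0.09, limma adjusted p = 0.00765) on a probe set of the _a_at type. Its other probe set, not marked as shared, was present on no array. LOC_Os07g48550 had 10.43, 10.37 and 10.31 after Al, against 10.72, 10.95 and 10.83 before Al. The arrays of each group were tight, and the change of -0.46 (SE 0.08) passed at a limma adjusted p of 0.00141.

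The genes of secondary wall and vascular wording did not move one way. OsSWN1 (LOC_Os06g04090), a switch factor for secondary walls, had 6.94, 7.53 and 7.37 after Al, against 7.12, 6.64 and 6.81 before Al. The groups overlapped, and the change of 0.42 (SE 0.21, limma adjusted p = 0.164) did not pass. Its second probe set gave 0.44 and did not pass either. NAC domain-containing protein 76 is the wording of 5 members, and in Arabidopsis the protein of that name acts in xylem vessel formation.

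Of those 5 members, 2 were tested and they moved apart. LOC_Os02g15340 had 7.42, 7.03 and 8.06 after Al, against 6.57, 6.27 and 6.62 before Al, a change of 1.02 (SE 0.26, limma adjusted p = 0.0133). LOC_Os06g33940 had 5.40, 5.30 and 5.50 after Al, against 6.72, 6.78 and 6.08 before Al, a change of -1.12 (SE 0.26, limma adjusted p = 0.0086). The second gene was read by a shared probe set, called present on 2 arrays after Al and on all 3 before Al. Its other probe set, not marked as shared, was present on no array, with means of 2.58 after Al and 3.83 before Al. The fall is therefore not credited to this gene alone. Without before Al repeat 2 the change of LOC_Os06g33940 was -0.999, just short of 2-fold. That leaves ONAC052, which was not detected after Al, as the 1 gene at least 2-fold lower.

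The deposited annotation predicts a membrane-spanning segment in the products of 3 members, all tested. LOC_Os08g44820 had 12.18, 12.29 and 11.95 after Al, against 11.46, 11.32 and 11.37 before Al, a change of 0.76 (SE 0.09, limma adjusted p = 0.000119). A second probe set of this gene also passed, with 0.62. LOC_Os09g32040, on a probe set of the _a_at type, had 10.13, 10.25 and 10.27 after Al, against 9.64, 9.57 and 9.73 before Al. Its change was 0.57 (SE 0.08, limma adjusted p = 0.000408). LOC_Os02g57650 had 12.90, 12.74 and 12.60 after Al, against 12.55, 12.45 and 12.35 before Al, a change of 0.30 (SE 0.08, limma adjusted p = 0.0211).

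All 3 were higher by less than 2-fold with small SEs. The last of them is the least firm: the lowest array after Al nearly met the highest before Al, and it lost its pass when any of 4 of the 6 arrays was left out. LOC_Os05g35170, which shares the wording NAC domain-containing protein 78 with LOC_Os02g57650, was higher by 0.26 (SE 0.08, limma adjusted p = 0.0324). It too lost its pass without any of 4 arrays.

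Of the senescence factors, OsNAP (LOC_Os03g21060), an activator of leaf senescence that also feeds back on ABA synthesis, was higher. Its signals were 8.74, 8.52 and 8.86 after Al, against 7.97, 8.32 and 8.08 before Al. The highest array before Al came close to the lowest after Al without reaching it. The change was 0.58 (SE 0.13, limma adjusted p = 0.00879). ONAC106, a negative regulator of leaf senescence, was called present on no array.

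Members described as NAC domain-containing protein 18 numbered 6, of which 4 were tested, 1 was higher and 1 was lower. LOC_Os04g35660 had 8.02, 8.94 and 8.35 after Al, against 7.06, 7.51 and 7.43 before Al, a change of 1.10 (SE 0.23, limma adjusted p = 0.00469). LOC_Os09g33490 had 6.94, 6.50 and 6.61 after Al, against 7.26, 7.17 and 7.69 before Al, a change of -0.69 (SE 0.20, limma adjusted p = 0.0269), a pass lost without after Al repeat 2, after Al repeat 3 or before Al repeat 3. The wording thus held genes of both directions, as it did for proteins 48, 68, 76, 90 and 21/22.

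The remaining rises were under 2-fold. LOC_Os12g29330, described as protein 71 like OsNAC5, was higher by 0.62 (SE 0.12, limma adjusted p = 0.00322). LOC_Os01g70110, described as protein 68 like OsNAC4, was higher by 0.55 (SE 0.12, limma adjusted p = 0.00637). LOC_Os10g27360, a NAM protein, had 6.16, 6.23 and 6.01 after Al, against 5.51, 5.31 and 5.36 before Al, and a change of 0.73 (SE 0.23, limma adjusted p = 0.0392).

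LOC_Os10g27360 lost its pass when any 1 of the 6 arrays was left out. The last fall was LOC_Os08g42400, also described as protein 68, with 8.48, 8.55 and 8.51 after Al, against 8.72, 8.93 and 8.99 before Al. Its change of -0.37 (SE 0.11) had a limma adjusted p of 0.0255, and it lost its pass without any of 5 arrays.

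**Figure D3:**
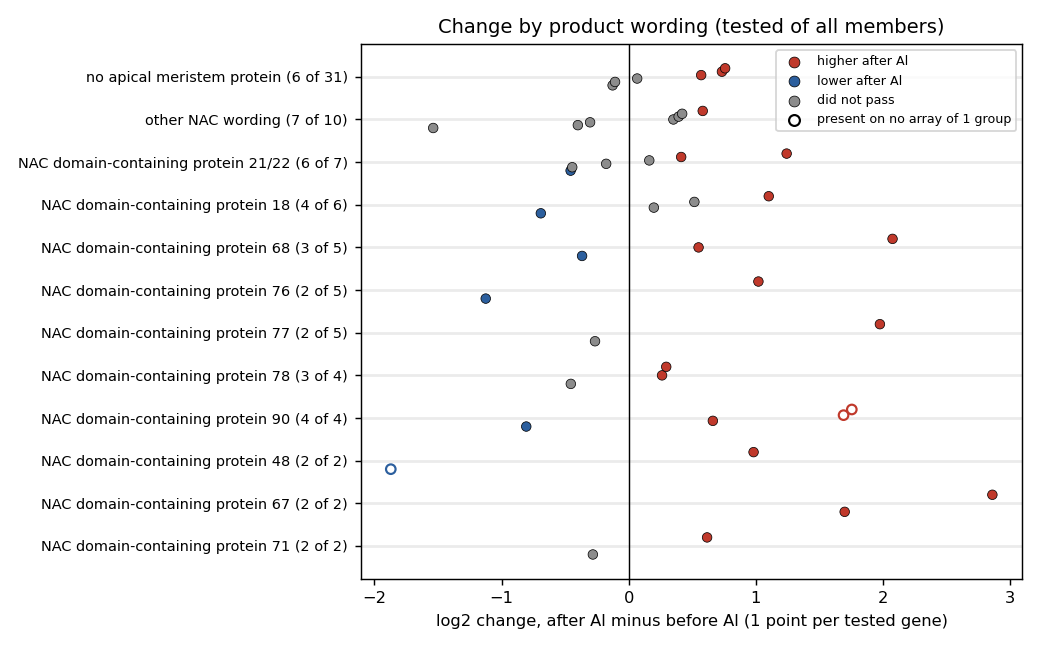
Log2 change after Al minus before Al (horizontal axis) for each tested NAC gene, 1 point per gene, in rows by the wording of its product description, with tested and total members in brackets. Open points are the 3 genes present on no array of 1 group. Both genes of protein 67 were higher, and several wordings hold points on both sides of 0.

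Members described only as a no apical meristem protein were mostly not detected. Of these 31 members, 21 were present on no array and 6 were tested, of which 3 were higher and 0 were lower in the limma fit (also 0 lower at an unadjusted p under 0.05). The other 56 members had 15 present on no array and 37 tested, of which 17 were higher and 6 were lower. The 3 NAM genes that rose were LOC_Os08g44820, LOC_Os09g32040 and LOC_Os10g27360, all described above.

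The 17 tested members that did not pass had changes from -1.54 to 0.52. Of these, 7 lay above 0 and 10 below, and the groups overlapped in 11. The interval of a change shows what the arrays could still hold. For OMTN4 it ran from -0.46 to 0.11, which leaves no room for a 2-fold change. For ONAC045 it ran from -1.14 to 0.61, and at this spread a 2-fold fall was not detectable.

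**Figure D4:**
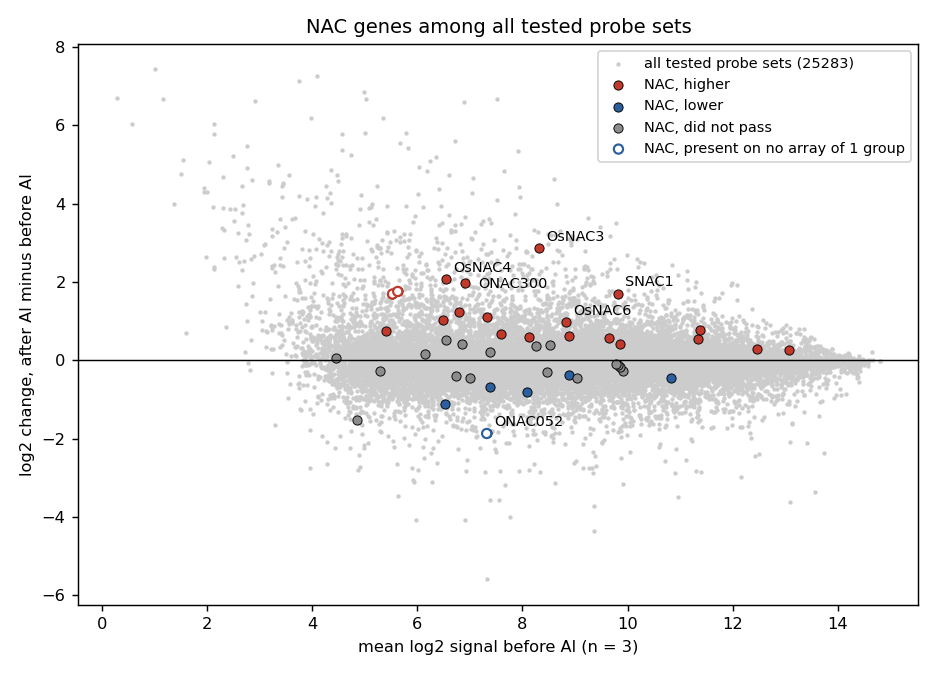
Log2 change after Al minus before Al (vertical axis) against mean log2 signal before Al (horizontal axis, n = 3) for all 25283 tested probe sets in grey and the 43 tested NAC genes in colour, open where present on no array of 1 group. The median NAC change was 0.35 and that of all probe sets -0.04, and OsNAC3 at 2.86 lies far above the bulk of probe sets of like signal.

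Several probe sets reached the filter in 3 genes, and within each gene the changes had the same sign. For LOC_Os01g70110 they were 0.55, 0.29 and 0.24, of which the last did not pass. For LOC_Os08g44820 and OsSWN1 all probe sets of the gene gave the same call. Of the 43 tested members, 36 were read by probe sets not marked as shared, and 18 of these were higher and 5 lower.

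Of the 44 members not tested, 8 were called present on 1 or 2 arrays. LOC_Os12g05990, a NAM protein, was called present on 1 array after Al and on none before Al. Its signals were 6.01, 5.97 and 6.45 after Al, against 2.90, 5.23 and 3.25 before Al. No fold is given, since the other arrays of both groups did not call it present and before Al repeat 2 lies far from the others. ONAC129 (LOC_Os11g31380), a grain filling factor, was present on 2 arrays after Al and on none before Al, with 4.98, 5.25 and 4.66 after Al, against 3.84, 4.05 and 3.51 before Al. That probe set was assigned to ONAC129 by genome overlap with 0 probes counted on the locus. The gene's other probe set was present on no array and had a difference of -0.07, so the rise is not credited to ONAC129. Neither gene met the filter, so no test is given.

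ONAC066 and ONAC022, factors of drought responses, were among the 8, and their groups overlapped. The rest of the 8 were LOC_Os02g56600, LOC_Os09g38010, LOC_Os11g31330 and LOC_Os04g52810, also with overlap. Of the 36 members present on no array, ONAC023 and ONAC026 are seed-specific factors and ONAC095 is a factor of drought and cold responses. The untested members had mean changes from -1.92 to 2.35 with a median of -0.06, at signals where the arrays detect little.

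Genes that NAC factors are known to act on, or that act beside them, were read from the same fit. The lists were written from prior knowledge with earlier results of these data known. Beside the counts of every list stand the shares of all tested probe sets, 14.3% higher and 15.9% lower. The lists are small, and their counts are a description. Dehydration and ABA response genes held 8 tested members of 11, of which 4 were higher and 0 were lower in the limma fit (1 lower at an unadjusted p under 0.05). OsSRO1c (LOC_Os03g12820), a direct target of SNAC1 in guard cells, had 11.67, 11.55 and 11.36 after Al, against 8.11, 8.18 and 8.34 before Al. The change was 3.32 (SE 0.10, limma adjusted p = 2.9e-08), larger than that of SNAC1 itself, and the groups were more than 3 units apart at their closest.

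OsASR (LOC_Os01g72900), an ABA-, stress- and ripening-induced protein gene, was higher by 6.68 (SE 0.19, limma adjusted p = 2.22e-08). ASR5, of the same family, was higher by 0.50 (SE 0.08, limma adjusted p = 0.00125), and DIP1, a dehydration-induced gene, by 0.20 (SE 0.06, limma adjusted p = 0.0367). Late embryogenesis genes did not pass. OsLEA3, which stress NAC factors activate, changed by 0.06 (SE 0.08, limma adjusted p = 0.629). RAB16A, a marker of the ABA response, read 5.68, 4.75 and 6.45 after Al, against 7.56, 5.50 and 8.17 before Al, with overlap (limma adjusted p = 0.123). RAB16D, of the same family, was present on no array after Al and on 2 before Al and was not tested. Its signals were 5.84, 6.13 and 3.95 after Al, against 7.68, 6.11 and 8.04 before Al, with overlap.

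In ABA synthesis and signalling, 7 of 12 genes were tested, 2 were higher and 0 were lower in the limma fit (also 0 lower at an unadjusted p under 0.05). OsbZIP23, a central ABA-signalling factor, was higher by 0.93 (SE 0.06, limma adjusted p = 2.57e-06). OsZEP, the zeaxanthin epoxidase of ABA synthesis, was higher by 0.74 (SE 0.18, limma adjusted p = 0.0106). OsNCED4 and OsABI5 were called present on no array.

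Nicotianamine and phytosiderophore genes, which in rice roots include OsNAC6 targets, had 6 tested members, of which 2 were higher and 0 were lower in the limma fit (also 0 lower at an unadjusted p under 0.05). OsNAS3, a nicotianamine synthase, was higher by 1.58 (SE 0.28, limma adjusted p = 0.00193). TOM1, the exporter of the phytosiderophore, was higher by 1.95 (SE 0.63, limma adjusted p = 0.0409), although its groups overlapped, with 9.42, 11.09 and 10.22 after Al, against 7.71, 9.92 and 7.23 before Al. The other 4 genes had changes from 1.13 to 1.31 and did not pass. In 5 of the 6 genes repeat 2 was the highest array of both groups, and OsNAS3 is the exception, lowest in before Al repeat 2.

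Secondary wall genes, which NAC switch factors turn on, had 7 tested members, of which 0 were higher and 2 were lower in the limma fit (1 higher at an unadjusted p under 0.05). OsCESA4, a cellulose synthase of the secondary wall, changed by -0.43 (SE 0.07, limma adjusted p = 0.00123). OsMYB61, a factor below the NAC switches, changed by -0.69 (SE 0.11, limma adjusted p = 0.00121). Chlorophyll degradation genes, which include direct targets of OsNAP in leaves, split. SGR, which removes magnesium from chlorophyll, was higher by 1.04 (SE 0.22, limma adjusted p = 0.00514). NYC1, a chlorophyll b reductase, changed by -0.89 (SE 0.22, limma adjusted p = 0.0136), and the other 3 did not pass. SGR was read by an _s_at probe set and NYC1 by an _a_at probe set, both marked as shared here. NYC1 was called present on only 1 array after Al and 2 before Al. Without before Al repeat 2, 5 genes of the lists were lower, against 3 with all arrays.

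**Figure D5:**
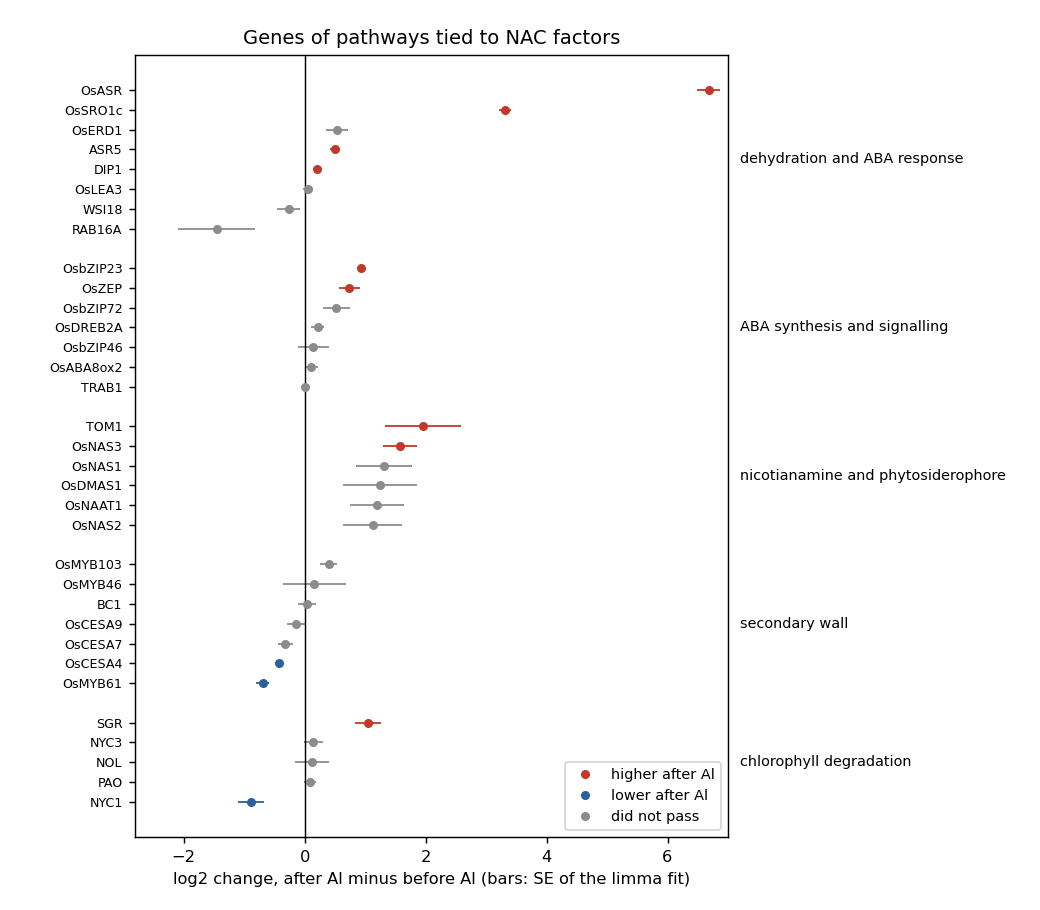
Log2 change after Al minus before Al (horizontal axis) with the SE of the limma fit for tested genes of 5 pathways tied to NAC factors; 3 arrays per group. Dehydration, ABA and nicotianamine genes that passed lie above 0, up to 6.68 for OsASR, the 2 secondary wall genes that passed lie below 0, and the chlorophyll genes that passed lie on both sides.

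The arrays were alike in quality. Between 25005 and 25492 of the 57258 probe sets were called present after Al, against 24836 to 24927 before Al, and correlations between arrays were 0.9867 to 0.9874 within groups and 0.9509 to 0.9559 between them. All 4 root tip and meristem markers were present on every array. Of these, OsSCR1 (change -0.93, limma adjusted p = 0.00603) and OsPIN2 (change -0.35, limma adjusted p = 0.00816) were lower after Al, while QHB (change 0.21, limma adjusted p = 0.383) and OsSHR1 (change -0.08, limma adjusted p = 0.61) did not pass. Lsi1 and Lsi2, markers of mature root, were present too. Lsi2 was higher by 0.71 (limma adjusted p = 0.000478), and Lsi1, with every array after Al below every array before Al, had a change of -0.31 that did not pass (limma adjusted p = 0.0509). Of 6 green tissue markers on the array, 2 were present on no array, 2 were lower after Al, and the log2 summed signal of the 6 was 8.56 to 8.71 after Al, against 9.70 to 9.78 before Al. The part of these markers in the NAC changes was not tested, and in bulk tips fewer cells of a type and less RNA per cell cannot be told apart.

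The authors' deposited table carries its own p-value, not adjusted, and fold change. By that table, 8 of the 43 tested NAC genes were at least 2-fold higher with a p under 0.05, and 2 were at least 2-fold lower. It compares the same arrays, so it is no separate evidence.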

How the data were processed

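RNA of 3 root tip samples after Al and 3 before Al was measured on Affymetrix rice arrays. The authors deposited log2 signals, and the submitters' processing notes name MAS5 for them. Per the file headers, the second table repeats these log2 signals and adds detection calls, a p-value and a ratio (fold change) per probe set. The deposited signals were identical in both tables (largest difference 0.0), and trimmed linear means of 496.9 to 497.1 show that arrays had been scaled to a common level. Of the probe sets, 43020 were assigned to 1 locus, 1371 to several and 12867 to none. Gene symbols come from prior knowledge.

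Log2 signals were tested as deposited with the two-sided test of limma 3.58.1 (R 4.3.3), using lmFit and then eBayes with its trend option and no covariate. It covered the 25283 probe sets with a present call on 3 or more of 6 arrays. Residual degrees of freedom were 4, and 9.47 after sharing the spread. The procedure was checked on simulated data. For a gene called present on no array of 1 group, the undetected group enters the fold with its own signal or each array's lowest detected signal, whichever is higher. For the 3 tested NAC genes of this kind the fold equals that of the signals. It is an estimate and not a lower limit. The number of arrays limits the precision. Every NAC gene that passed, and every tested NAC gene of a list of 33 known by name, is named. Members, lists and this rule were chosen with earlier results of these data known.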

Additional observations from a re-analysis of the deposited data

How the results depend on the processing

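In 18 alternatives, the 582 recomputed values of 33 named NAC genes gave 548 unchanged calls, 31 lost passes, 3 gained passes and 0 reversals. Of the 26 genes that passed, 21 kept the pass under every alternative that gave a value. The 5 that lost it at least once were LOC_Os10g27360, LOC_Os05g35170, LOC_Os02g57650, LOC_Os08g42400 and LOC_Os09g33490. The gains were OsNAC10 without before Al repeat 2, OsNAC5 without after Al repeat 2, and OMTN1 with the replicate block.

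The number of NAC genes at least 2-fold higher was 5 when presence on all 6 arrays was required and 5 with a pseudocount of 64. The number at least 2-fold lower was 0 with presence on all 6 arrays and 1 with a pseudocount of 16, with a pseudocount of 64, or without shared probe sets. The lower number follows from fewer genes tested in the first and last of these settings and from the smaller log2 differences a pseudocount gives. The median change over all 87 genes was 0.103 without a filter. Leaving out 1 array in turn gave 17 to 19 NAC genes higher, 4 to 6 lower, 8 to 10 at least 2-fold higher, 1 to 2 at least 2-fold lower, and a median of 0.250 to 0.356. In the related lists it gave 7 to 12 genes higher and 2 to 5 lower. For all probe sets it gave 3000 to 3383 higher and 3126 to 3905 lower.

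Pairing of the arrays by repeat number was not established: the deviations of same-numbered arrays correlated at 0.07, 0.001 and 0.087. Arrays of different numbers gave -0.092 to 0.021, so 0.07 and 0.087 were the highest values, though small. The repeat numbers are those of the sample titles, and the deposited column names after Al carry other numbers. Paired by the column names, the 2 shared numbers gave 0.021 and 0.007. With the title's repeat number as a replicate block, 20 NAC genes were higher and 8 lower, 25 of the 26 genes that passed did so again, and 15 genes of the related lists were higher, against 9 without the block. The cause was not tested. Across the alternatives the median of all tested probe sets stayed between -0.085 and -0.033. Signals near background limit the 44 members without a test.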
